A study of Arabidopsis thaliana with 6 samples.

Results

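The genes described here are 33 *Arabidopsis thaliana* loci that are widely known to respond to low oxygen but lie outside the fermentation pathway. They were taken by locus from the 28775 genes of the deposited count table, as a list of named hypoxia-responsive genes (among them *HRA1*, *LBD41*, *HB1*, *AAD6*, *PFK6*, *HRU1*, *CML38*, *NIP2;1* and *SRO5*) and of hypoxia-responsive proteins without a known function. They were measured by RNA-seq of whole seedlings in aerobic conditions in 3 genotypes with 2 libraries each. Col-0 is the untransformed wildtype. MC-Line3 and MA-Line1 are homozygous single-insertion lines in the Col-0 background in which the constitutive CaMV 35S promoter drives *JcERFVII2*, an ERFVII gene of the shrub *Jatropha curcas*. MC-Line3 (35S:MC-JcERFVII2, line 3, the MC line) carries the wildtype coding sequence, and MA-Line1 (35S:MA-JcERFVII2, line 1, the MA line) carries a form in which the cysteine behind the initial methionine is exchanged for alanine. The seedlings were grown on vertical plates at 23 °C with 16 h of light and 8 h of dark and were collected at the end of the light period, at an age of 10 d according to the sample labels, while the text of the study gives another age. No group was exposed to low oxygen. Each form was profiled in a single line, so the form and the line cannot be told apart, and *JcERFVII2* itself is not among the counted genes, so its level could not be checked.

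ERFVII proteins are transcription factors that plants use to sense oxygen. In air, plant cysteine oxidases oxidize the cysteine behind the initial methionine, which marks the protein for destruction through the N-degron pathway. When oxygen runs low the proteins accumulate and switch on a set of genes, part of which serves fermentation and sugar breakdown, while the genes considered here act in transcriptional feedback, nitric oxide scavenging, lipid and sulfur metabolism, calcium signalling and protein turnover, or encode small proteins whose role is not known. The hypoxia-responsive promoter element (HRPE) is a known target of ERFVII proteins, and GCCGCC, the GCC box, is a known target of ERF proteins in general. An ERFVII without the cysteine escapes the oxygen-dependent step.

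A loosened form of the HRPE (AAACCA, then any 3 bases, then GC) and the letters of the GCC box were searched on both strands in the 250 bases before the annotated start of each gene in TAIR10.1. The loosened form was found in 2 of the 33 genes (6.06%), namely *WIP4* and *NIP2;1*, and in 0.827% of all promoters. The element as it is known has G or C at each of the 3 middle bases, and in that form it was found in 0 of the 33 genes and in 0.0412% of all promoters, so no match given here fits the element in full. GCCGCC was found in 3 of the 33 genes (9.09%), namely *AT4G33560*, *AT4G39675* and *AT2G17850*, and in 1.85% of all promoters. In longer windows the share of GCCGCC stayed at 9.09% of the 33 genes, while that of all promoters was 4.11% in 500 bases and 8.45% in 1000 bases, close to the share of the 33 genes. A match describes the letters only.

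Shown first is the promoter of *WIP4* (chr4:6374434-6374733, plus strand), a gene with the loosened HRPE. It rose in both lines, but 97.1% of its exon bases overlap other genes, so its reads cannot be told apart from theirs. Shown next are those of *AT2G17850* (chr2:7760840-7761139, minus strand) and *AT4G39675* (chr4:18413475-18413774, plus strand), 2 genes with GCCGCC that were far higher in the MC line than in the MA line, which were chosen after their values were seen. All are given 5′ to 3′ on the strand of the gene from the RefSeq TAIR10.1 genome, with the matches in capitals. The window shown for *WIP4* overlaps a long non-coding RNA gene, *AT4G05775*. *AT4G33560*, the other gene with GCCGCC, is not shown. It rose in both lines, and its log2 difference of 0.11 between them was not called (adjusted p = 0.532, edgeR).
WIP4: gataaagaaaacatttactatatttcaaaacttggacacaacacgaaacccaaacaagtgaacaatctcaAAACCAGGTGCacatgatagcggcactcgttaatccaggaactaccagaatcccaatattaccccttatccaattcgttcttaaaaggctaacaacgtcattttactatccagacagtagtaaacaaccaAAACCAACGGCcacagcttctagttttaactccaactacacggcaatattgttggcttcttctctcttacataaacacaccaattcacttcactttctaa
AT2G17850: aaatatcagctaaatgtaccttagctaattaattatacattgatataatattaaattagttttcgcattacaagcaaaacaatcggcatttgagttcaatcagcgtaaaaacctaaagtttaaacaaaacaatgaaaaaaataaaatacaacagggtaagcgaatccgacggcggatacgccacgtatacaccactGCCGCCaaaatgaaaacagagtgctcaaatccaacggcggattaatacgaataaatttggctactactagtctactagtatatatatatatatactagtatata
AT4G39675: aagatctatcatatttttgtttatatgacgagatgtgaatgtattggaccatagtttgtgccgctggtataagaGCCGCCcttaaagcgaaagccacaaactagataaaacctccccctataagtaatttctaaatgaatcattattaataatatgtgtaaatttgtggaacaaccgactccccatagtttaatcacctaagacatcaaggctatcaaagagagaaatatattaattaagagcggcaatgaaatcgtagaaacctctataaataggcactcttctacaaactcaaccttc

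*WIP4* held 2 matches to the loosened HRPE, AAACCAGGTGC at 230 to 220 bases and AAACCAACGGC at 100 to 90 bases before the start. *AT2G17850* held GCCGCC at 104 to 99 bases and *AT4G39675* at 226 to 221 bases before the start.

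The total counts per library lay between 53084008 and 65271057, the normalization factors lay between 0.920 and 1.06, and the 10 most counted genes took 7.85% to 10.2% of the counts. Replicates differed by more than counting error in each genotype, and the chi-square per gene was 5.72 for the MA line, 10.1 for the MC line and 28.2 for the wildtype. The 2 Col-0 libraries stood furthest apart, with an SD of the log2 difference between replicates of 0.26 across genes against 0.20 in the MC line and 0.19 in the MA line. Transcript levels are given as CPM, counts scaled to a common library size with the trimmed mean of M values (TMM), and differences were tested with the quasi-likelihood test of edgeR, adjusted by the Benjamini-Hochberg method over the 21206 genes that passed the filter on low counts. A gene is called where the adjusted p is below 0.05, and "rose" and "fell" are used only of called genes. Of the 33 genes, 32 passed the filter, with at least 22 counts in each library. *AT5G10040*, which encodes an uncharacterized protein, had 0 counts in all 6 libraries, which allows up to 3 counts per library (counting error only), and was not tested. Levels per kb of exon in Col-0 ranged from 0.379 CPM per kb for *NIP2;1* to 188.5 CPM per kb for *AT3G10020*.

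In aerobic seedlings of both lines a larger number of these genes stood above the wildtype than below it. The list was chosen with earlier results of these data known. The study had already named *HB1*, *LBD41*, *AAD6*, *AT2G17850* and *AT5G66985* among its differentially expressed genes. In the MA line, 16 of the 32 tested genes rose (50%), 8 fell (25%) and 8 were not called, while 18.2% of all genes tested rose and 19.4% fell. In the MC line, 18 rose (56.3%), 6 fell (18.8%) and 8 were not called, while 14.5% of all genes tested rose and 16.8% fell. The median log2 fold change was 0.41 in the MA line and 0.43 in the MC line, against 0.01 over all genes tested in each. The range was wide, from -1.73 to 2.27 in the MA line and from -2.28 to 3.18 in the MC line. Changes beyond 2-fold were called upwards for 7 genes in the MA line and 9 in the MC line, and downwards for 1 gene (*PP2-A13*) and 4 genes (*CML38*, *SRO5*, *AT3G23170* and *PP2-A13*). Of all genes tested, 3.01% in the MA line and 1.33% in the MC line were called upwards beyond 2-fold, and 4.85% and 3.74% downwards. In RNA of whole seedlings fewer cells of a type and less RNA per cell cannot be told apart.

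When libraries were scaled only by their size, the median over all genes tested moved to 0.18 in the MA line and 0.14 in the MC line, with 17 of the 32 genes up and 5 down in the MA line and 19 up and 5 down in the MC line. The number of genes that fell in the MA line was 5 without either of its libraries and 10 without Col-0 replicate 2, and the number that fell in the MC line was 3 without MC-Line3 replicate 2. With dispersions estimated without the genotypes, a setting added after the data were seen that counts the differences between genotypes as spread, 0 genes of the whole table were called in any comparison, and 13 of the 32 genes in the MA line and 10 in the MC line had an unadjusted p below 0.05.

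Both MA-Line1 libraries lay above both Col-0 libraries for 17 of the 32 genes and below them for 11, while this held for 36.3% and 34.2% of all genes tested. Both MC-Line3 libraries lay above for 22 and below for 7, beside 32.9% and 31.7% of all genes tested. The lines were compared with the same 2 Col-0 libraries, so the calls of the 2 lines are linked. The genes *NIP2;1*, *AT5G45960* and *ACHT5* were called in neither line.

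**Figure D1:**
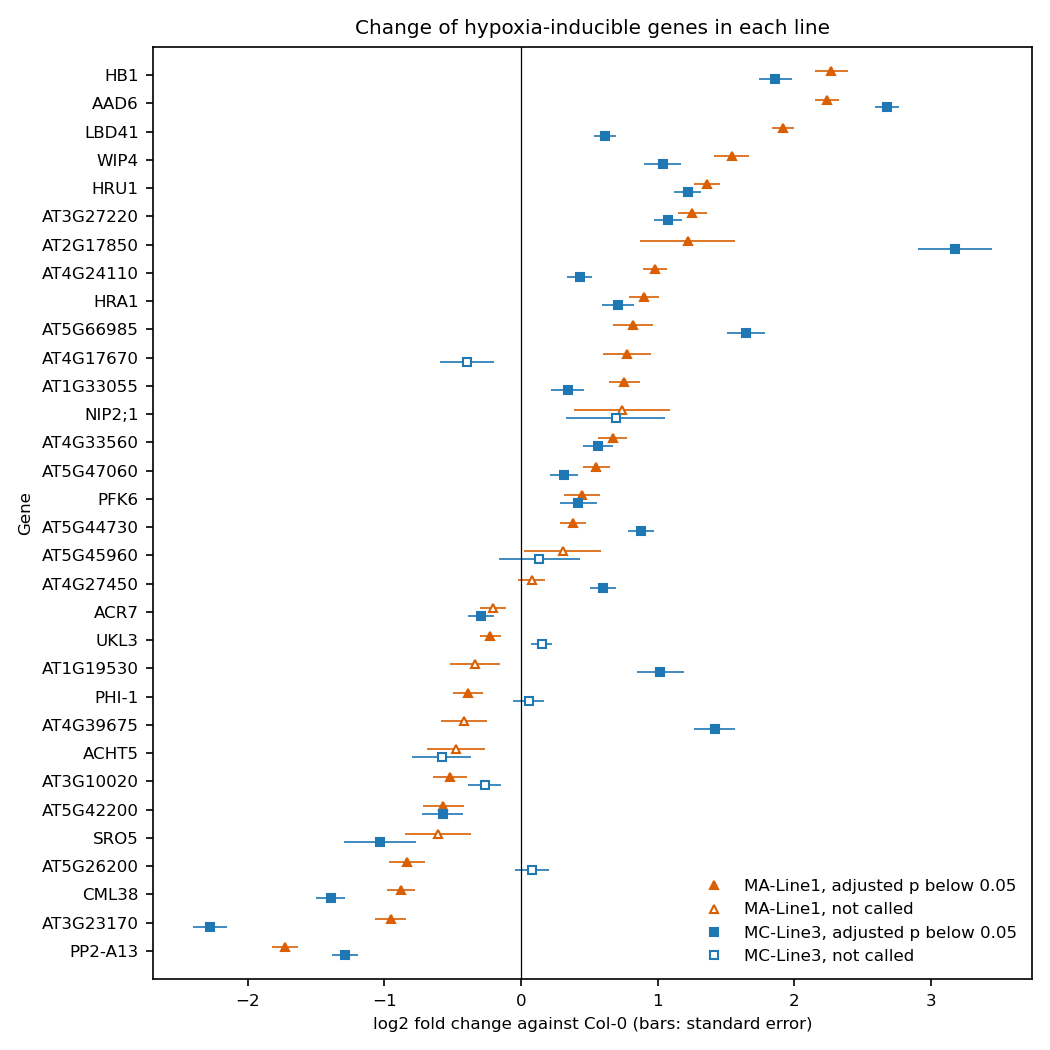
Log2 fold change of each of the 32 tested hypoxia-inducible genes against Col-0 in MA-Line1 (triangles) and MC-Line3 (squares), with bars for the standard error and filled symbols for an adjusted p below 0.05. *HB1* and *AAD6* lead in the MA line at 2.27 and 2.24, *AT2G17850* leads in the MC line at 3.18, and *PP2-A13*, *AT3G23170* and *CML38* stand at the lower end in both lines.

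**Figure D2:**
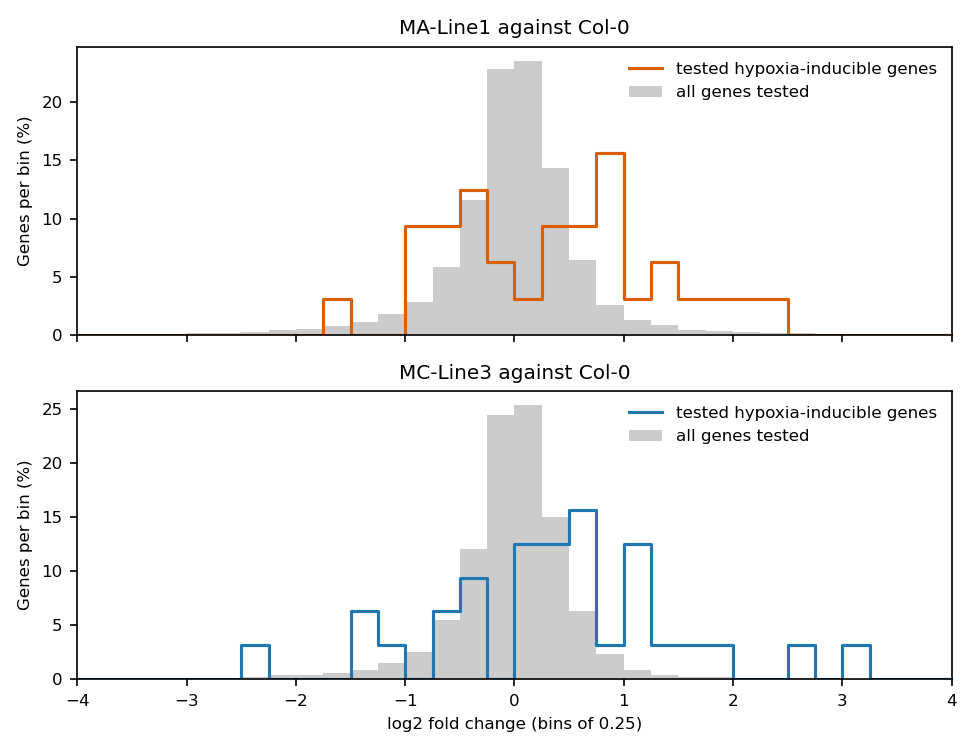
Share of genes in bins of 0.25 of the log2 fold change against Col-0, for the 32 tested hypoxia-inducible genes (coloured outline) and for all 21206 genes tested (grey), in MA-Line1 (top) and MC-Line3 (bottom), with the axis cut at -4 and 4. The median over all genes is 0.01 in both panels, whereas the outlines spread to both sides with medians of 0.41 and 0.43.

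The lines also differed from each other. In the direct comparison 8 of the 32 genes were higher (25%) and 11 were lower (34.4%) in the MA line than in the MC line, while 11.4% of all genes tested were higher and 8.63% lower. Both MA-Line1 libraries lay above both MC-Line3 libraries for 13 genes and below them for 12, beside 30.2% and 31.9% of all genes tested. The median log2 difference was 0.10, against -0.01 over all genes tested. Differences beyond 2-fold were called upwards for *LBD41*, *AT4G17670* and *AT3G23170* and downwards for *AT1G19530*, *AT4G39675* and *AT2G17850*, beside 3.33% and 2.19% of all genes tested. The number higher in the MA line was 5 without MC-Line3 replicate 2 or without MA-Line1 replicate 1, and 4 without MA-Line1 replicate 2.

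**Figure D3:**
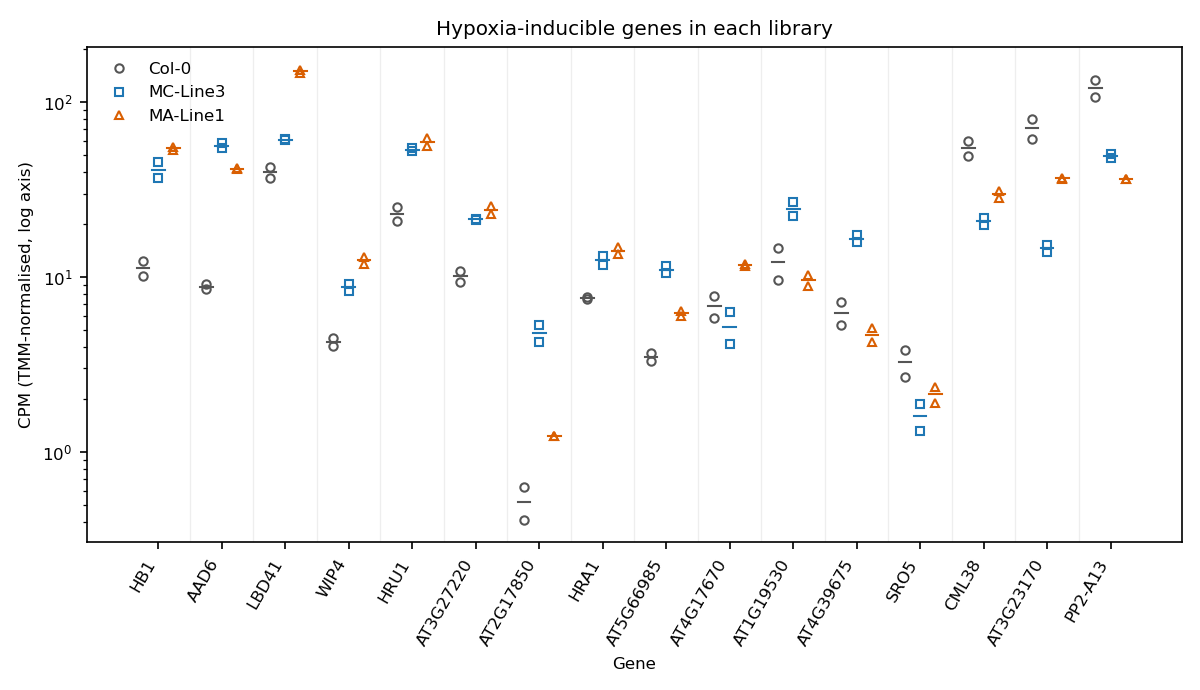
CPM (TMM-normalised, log axis) in each of the 6 libraries for the 16 hypoxia-inducible genes described in full, which are those called with a change of at least 2-fold in a comparison and *HRA1*, ordered by the log2 fold change in the MA line, with a horizontal line at each group mean. *LBD41* stands at 147 and 154 CPM in the MA line against 36.9 to 61.4 CPM in the other genotypes, and *AT2G17850* at 5.31 and 4.28 CPM in the MC line against at most 1.24 CPM elsewhere.

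The regulators among these genes rose in both lines. *LBD41* (*AT3G02550*, chr3:536500-538126) encodes a LOB-domain protein, a plant-specific class of transcriptional regulators. It had 36.9 and 42.4 CPM in Col-0, 61.4 and 60.4 CPM in the MC line and 147 and 154 CPM in the MA line. The 3 genotypes did not overlap, and the level in the MA line stood apart from both others. The log2 fold change was 1.92 ± 0.08 (SE) in the MA line (3.78-fold, adjusted p = 1.93e-07, edgeR) and 0.62 ± 0.08 in the MC line (1.53-fold, adjusted p = 2.66e-04). Between the lines *LBD41* was 2.47-fold higher in the MA line (log2 difference 1.30 ± 0.08, adjusted p = 2.11e-06), the difference with the smallest adjusted p among the 32 genes.

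*HRA1* (*AT3G10040*, chr3:3096345-3098417) encodes a trihelix transcription factor that binds the ERFVII protein RAP2.12 and attenuates its activity. It had 7.54 and 7.64 CPM in Col-0, 11.8 and 13.1 CPM in the MC line and 14.8 and 13.6 CPM in the MA line. All 4 libraries of the lines stood above both Col-0 libraries. Against Col-0 the log2 fold change was 0.90 ± 0.11 (SE) in the MA line (adjusted p = 1.39e-04, edgeR) and 0.71 ± 0.12 in the MC line (adjusted p = 0.00104). The log2 difference between the lines was 0.19 ± 0.11 and was not called (adjusted p = 0.265). The study, which used edgeR on these libraries, reported no upregulation of *HRA1* in either line, unlike the fit used here.

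Of the 9 tested genes of metabolism and redox balance, 5 rose and 1 fell in each line. Over all genes tested, 18.2% rose and 19.4% fell in the MA line, and 14.5% and 16.8% in the MC line. The counts of the smaller classes below stand beside the same shares. *HB1* (*AT2G16060*, chr2:6982531-6983777) encodes class 1 hemoglobin, which binds oxygen tightly and scavenges nitric oxide. It had 10.1 and 12.4 CPM in Col-0, 45.3 and 36.7 CPM in the MC line and 53.2 and 55.6 CPM in the MA line. The wildtype libraries lay far below those of either line. This gave a log2 fold change of 2.27 ± 0.12 (SE) in the MA line (4.83-fold, adjusted p = 5.58e-07, edgeR), the highest of the 32 genes in that line, and 1.86 ± 0.12 in the MC line (3.63-fold, adjusted p = 2.07e-06). *HB1* was 1.33-fold higher in the MA line than in the MC line (log2 difference 0.41 ± 0.11, adjusted p = 0.0226). That call was lost without MC-Line3 replicate 2 (0.27) and without either MA-Line1 library (0.44 and 0.38). By quantitative PCR the study also found *HB1* more induced in the MA line than in the MC line in air.

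*AAD6* (*AT1G43800*, chr1:16577521-16579722) encodes a stearoyl-acyl carrier protein desaturase, an enzyme that introduces a double bond into fatty acids. It had 8.54 and 9.07 CPM in Col-0, 58.4 and 54.4 CPM in the MC line and 41.9 and 41.4 CPM in the MA line. In contrast to *LBD41* and *HB1*, the higher level was that of MC-Line3. Relative to the wildtype the log2 fold change was 2.68 ± 0.09 (SE) in the MC line (6.40-fold, adjusted p = 3.80e-08, edgeR) and 2.24 ± 0.09 in the MA line (4.72-fold, adjusted p = 1.86e-07). The direct comparison placed MA-Line1 1.35-fold lower (log2 difference -0.44 ± 0.08, adjusted p = 0.00193).

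*AT2G17850* (chr2:7760005-7760839) encodes a protein of the rhodanese family, named for enzymes that transfer sulfur. It had 0.409 and 0.630 CPM in Col-0, 5.31 and 4.28 CPM in the MC line and 1.23 and 1.24 CPM in the MA line, from 22 and 39 counts in the Col-0 libraries, 287 and 242 in the MC line and 83 and 71 in the MA line. The MC-Line3 libraries were high and the other 4 were low, with no overlap between the genotypes. The fit gave a log2 fold change of 3.18 ± 0.27 (SE) in the MC line (9.05-fold, adjusted p = 1.41e-05, edgeR), the highest of the 32 genes in that line. In the MA line it was 1.22 ± 0.35 (adjusted p = 0.0180), a call that was lost without Col-0 replicate 1 (0.97), MA-Line1 replicate 1 (1.23) or MA-Line1 replicate 2 (1.22). MA-Line1 was 3.88-fold below MC-Line3 (log2 difference -1.96 ± 0.22, adjusted p = 1.17e-04). GCCGCC stands 104 to 99 bases before its start.

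The other genes of this group changed less. *AT5G44730*, of the haloacid dehalogenase-like hydrolase family, rose more in the MC line, with a log2 fold change of 0.88 (adjusted p = 7.34e-05, edgeR) against 0.38 in the MA line (adjusted p = 0.0105), and the difference of -0.50 between the lines was called (adjusted p = 0.00298). Its call in the MA line was lost without either MA-Line1 library (log2 fold changes between 0.34 and 0.55 over all alternatives). *PFK6*, a phosphofructokinase of glycolysis, rose by 1.36-fold in the MA line and 1.34-fold in the MC line, from 7.59 and 6.38 CPM in Col-0 to between 8.81 and 9.82 CPM in the lines. Both of its calls were lost without Col-0 replicate 2 and without either library of the line concerned, that in the MC line also without either MA-Line1 library, and the log2 fold change ranged down to 0.33 in the MA line and 0.29 in the MC line. *UKL3*, a uridine kinase-like gene, fell in the MA line by 0.22 on the log2 scale (adjusted p = 0.0462), a call that was lost in 10 of the 16 alternatives, among them leaving out Col-0 replicate 1 and leaving out any library of the lines (log2 fold changes between -0.27 and -0.05), and its difference of -0.38 between the lines (adjusted p = 0.00650) was lost without MC-Line3 replicate 2 or MA-Line1 replicate 2 (-0.42 to -0.33 over the alternatives). *ACR7*, an ACT-domain protein, fell in the MC line by 0.29 on the log2 scale (adjusted p = 0.0406), a call that was lost in 8 alternatives, among them leaving out Col-0 replicate 2 and leaving out any library of the lines (-0.36 to -0.16). *ACHT5*, an atypical thioredoxin, had 35.5 and 19.1 CPM in Col-0 and between 17.1 and 20.0 CPM in the lines, so that only Col-0 replicate 1 stood apart, and it was not called. *AT5G45960*, of the GDSL lipase family, had between 1.14 and 1.79 CPM in all libraries and was not called.

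The 3 genes of calcium and stress signalling moved in different directions. *HRU1* (*AT3G03270*, chr3:761004-763369), a universal stress protein known to affect hydrogen peroxide production under low oxygen, had 20.9 and 25.1 CPM in Col-0, 52.6 and 54.5 CPM in the MC line and 62.3 and 55.9 CPM in the MA line. Every library of the lines was above 2 times the level of either Col-0 library. The log2 fold change was 1.36 ± 0.10 (SE) in the MA line (2.57-fold, adjusted p = 3.40e-06, edgeR) and 1.22 ± 0.10 in the MC line (2.33-fold, adjusted p = 9.33e-06), and the difference of 0.14 ± 0.09 between the lines was not called (adjusted p = 0.337).

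*CML38* (*AT1G76650*, chr1:28766750-28768138), a calmodulin-like calcium sensor known from hypoxia-induced ribonucleoprotein granules, went the other way. It had 49.2 and 59.8 CPM in Col-0, 21.9 and 19.7 CPM in the MC line and 28.3 and 30.99 CPM in the MA line. Col-0 was the highest genotype and MC-Line3 the lowest. Against Col-0 the log2 fold change was -0.88 ± 0.10 (SE) in the MA line (adjusted p = 9.25e-05, edgeR) and -1.39 ± 0.11 in the MC line (2.63-fold lower, adjusted p = 6.45e-06). The difference between the lines was 0.51 ± 0.11 (adjusted p = 0.00656), a call that was lost without MC-Line3 replicate 2 (0.44) or MA-Line1 replicate 2 (0.45).

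*SRO5* (*AT5G62520*, chr5:25097944-25099907), a protein similar to RCD-ONE that is linked to oxidative and salt stress, had 2.68 and 3.81 CPM in Col-0, 1.89 and 1.33 CPM in the MC line and 2.37 and 1.91 CPM in the MA line. Both lines lay below Col-0 in every library. The log2 fold change in the MC line was -1.03 ± 0.26 (SE, adjusted p = 0.0126, edgeR), a call that was lost without Col-0 replicate 2 (-0.75) or MC-Line3 replicate 2 (-0.79), and in the MA line it was -0.60 ± 0.24 and not called (adjusted p = 0.0702), while it was called without Col-0 replicate 1 (-0.82). Of its exon bases 45.5% overlap *AT5G62530* on the opposite strand. The library kit does not mark the strand, so reads from overlapping genes cannot be told apart. The difference between the lines was 0.43 ± 0.28 (adjusted p = 0.340).

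Genes that respond quickly to touch and chitin were lower in both lines beside *CML38*. Of all genes tested, 19.4% fell in the MA line and 16.8% in the MC line. Of 12 such genes 9 fell and 0 rose in the MA line and 11 fell and 0 rose in the MC line, with median log2 fold changes of -0.65 and -2.18, against 0.01 over all genes. Their summed level was 1988 to 2106 CPM in Col-0, 912.5 to 987.8 CPM in the MC line and 1452 to 1473 CPM in the MA line, the same order of genotypes as for *CML38* and *AT3G23170*. *CML37*, a close relative of *CML38*, had a log2 fold change of -0.68 in the MA line and -2.96 in the MC line, and the zinc finger gene *ZAT10* of -1.32 and -2.77. The part of this response in the values of *CML38* and *AT3G23170* was not tested.

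Of the 5 genes of protein turnover and binding, 3 rose and 2 fell in the MA line, and 2 rose and 2 fell in the MC line. *AT3G27220* (chr3:10051069-10053761), a kelch-repeat protein, had 9.34 and 10.8 CPM in Col-0, 21.4 and 21.2 CPM in the MC line and 25.3 and 22.9 CPM in the MA line. The libraries of both lines lay between 21.2 and 25.3 CPM, all above Col-0. This gave a log2 fold change of 1.26 ± 0.10 (SE) in the MA line (2.39-fold, adjusted p = 9.16e-06, edgeR) and 1.08 ± 0.11 in the MC line (2.11-fold, adjusted p = 3.78e-05), and the difference of 0.18 ± 0.10 was not called (adjusted p = 0.242).

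*AT4G17670* (chr4:9833491-9834859) encodes a protein with the DUF581 domain, also known as the FLZ zinc finger. It had 5.84 and 7.74 CPM in Col-0, 6.27 and 4.14 CPM in the MC line and 11.9 and 11.5 CPM in the MA line. Only the MA-Line1 libraries stood above Col-0, while those of MC-Line3 overlapped it. Relative to the wildtype the log2 fold change was 0.78 ± 0.18 (SE) in the MA line (adjusted p = 0.00565, edgeR). In the MC line it was -0.40 ± 0.20 and not called (adjusted p = 0.155), while it was called without Col-0 replicate 1 (-0.59) or MC-Line3 replicate 1 (-0.73). The 2.26-fold difference between the lines was called directly (log2 difference 1.17 ± 0.19, adjusted p = 0.00109). The other DUF581 gene, *AT5G47060*, rose in both lines, with log2 fold changes of 0.55 in the MA line (adjusted p = 0.00149) and 0.32 in the MC line (adjusted p = 0.0365), the latter call being lost in 6 alternatives, among them leaving out Col-0 replicate 1, MC-Line3 replicate 1 or either MA-Line1 library (0.21 to 0.44).

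*PP2-A13* (*AT3G61060*, chr3:22602816-22604582), which encodes an F-box protein of the phloem protein 2 family, fell most in the MA line. It had 133 and 107 CPM in Col-0, 50.6 and 47.9 CPM in the MC line and 36.2 and 36.5 CPM in the MA line. The wildtype libraries were the highest by far. The fit gave a log2 fold change of -1.73 ± 0.10 (SE) in the MA line (3.31-fold lower, adjusted p = 7.31e-07, edgeR) and -1.29 ± 0.10 in the MC line (2.44-fold lower, adjusted p = 5.56e-06). The difference between the lines was -0.44 ± 0.10 (adjusted p = 0.00954), a call that was lost without any of the 4 libraries of the lines (-0.48 to -0.38). Of its exon bases 33.2% overlap *AT3G61070* on the opposite strand. *AT5G42200*, a RING-type protein of the kind that acts in ubiquitination, fell by 0.57 on the log2 scale in both lines (adjusted p = 0.0114 in the MA line and 0.0148 in the MC line). Its calls were lost without Col-0 replicate 2 in both lines, without MA-Line1 replicate 2 or with library size alone in the MA line and without either MC-Line3 library in the MC line, with log2 fold changes between -0.74 and -0.37.

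Among the 4 wound- and growth-related genes 2 rose and 1 fell in the MA line, while 3 rose in the MC line. *WIP4* (*AT4G10270*, chr4:6374734-6375210), a small protein of the wound-responsive family, had 4.06 and 4.46 CPM in Col-0, 8.36 and 9.14 CPM in the MC line and 11.9 and 12.99 CPM in the MA line. The 3 genotypes formed separate steps, with MA-Line1 the highest. The log2 fold change was 1.54 ± 0.13 (SE) in the MA line (2.91-fold, adjusted p = 9.86e-06, edgeR) and 1.04 ± 0.14 in the MC line (2.05-fold, adjusted p = 2.63e-04). The difference of 0.50 ± 0.12 between the lines was called (adjusted p = 0.0112) but was lost without MC-Line3 replicate 1 (0.46), MA-Line1 replicate 1 (0.57) or MA-Line1 replicate 2 (0.44). Of the exon bases of *WIP4* 97.1% overlap *AT4G05775* and its neighbour *AT4G10280* on the opposite strand, so its reads cannot be told apart from theirs. Its promoter, shown above, holds 2 matches to the loosened HRPE.

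*AT4G33560*, of the same family, rose by 1.59-fold in the MA line (adjusted p = 6.74e-04, edgeR) and 1.48-fold in the MC line (adjusted p = 0.00296). Its log2 difference of 0.11 between the lines was not called (adjusted p = 0.532). GCCGCC stands 202 to 197 bases before its start, on the opposite strand. *AT4G27450*, an aluminium-induced protein with YGL and LRDR motifs, had 151 and 120 CPM in Col-0, 213 and 197 CPM in the MC line and 143 CPM in both MA-Line1 libraries. It was raised in the MC line, with a log2 fold change of 0.60 (adjusted p = 0.00108), and MA-Line1 overlapped Col-0 at 0.08 (adjusted p = 0.560). The difference of -0.52 between the lines was called (adjusted p = 0.00326) and was lost without MC-Line3 replicate 1 (-0.58 to -0.45 over the alternatives). *PHI-1*, an EXORDIUM-like gene, fell by 0.39 on the log2 scale in the MA line (adjusted p = 0.0200) and had a log2 fold change of 0.06 in the MC line (adjusted p = 0.734). The calls of *PHI-1* were weak: that in the MA line was lost without Col-0 replicate 1 or either MA-Line1 library and with library size alone (-0.57 to -0.17), and that between the lines (-0.45, adjusted p = 0.0175) was lost without any library of the lines.

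Of the 2 tested transport genes, none rose. *AT5G26200*, a mitochondrial carrier, had 7.50 and 7.84 CPM in Col-0, 8.07 and 8.15 CPM in the MC line and 4.48 and 4.11 CPM in the MA line. It was low in the MA line alone, 1.78-fold below Col-0 (adjusted p = 6.44e-04, edgeR) and 1.88-fold below MC-Line3 (adjusted p = 6.32e-04). *NIP2;1*, an aquaporin-family channel that transports lactic acid, had 25 to 57 counts per library, or 0.465 and 0.598 CPM in Col-0, 0.777 and 0.954 CPM in the MC line and 0.813 and 0.991 CPM in the MA line. All libraries of the lines stood above Col-0, but neither the log2 fold change of 0.74 ± 0.35 (SE) in the MA line (adjusted p = 0.120) nor that of 0.69 ± 0.36 in the MC line (adjusted p = 0.171) was called at this depth. Of its exon bases 61.9% overlap genes on the opposite strand, and 10.4% of its words of 50 bases occur elsewhere in the genome, so its counts are uncertain.

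The 7 tested genes for proteins of unknown function include 3 of the 6 genes that differed beyond 2-fold between the lines. *AT4G39675* (chr4:18413775-18414240) had 7.16 and 5.33 CPM in Col-0, 17.3 and 15.9 CPM in the MC line and 4.24 and 5.11 CPM in the MA line. It was high in the MC line alone. The log2 fold change in the MC line was 1.42 ± 0.15 (SE, 2.67-fold, adjusted p = 6.01e-05, edgeR), and in the MA line it was -0.42 ± 0.17 and not called (adjusted p = 0.0776), while it was called without Col-0 replicate 2 (-0.62) and by edgeR's likelihood ratio and exact tests. MA-Line1 was 3.56-fold below MC-Line3 (log2 difference -1.83 ± 0.15, adjusted p = 1.51e-05).

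*AT1G19530* (chr1:6763765-6765049) showed the same pattern. The annotation names its product a DNA polymerase epsilon subunit, which was not checked, and the gene is grouped here with those of unknown function. It had 14.7 and 9.57 CPM in Col-0, 26.7 and 22.3 CPM in the MC line and 8.87 and 10.3 CPM in the MA line. The MC-Line3 libraries were the highest, and those of MA-Line1 overlapped Col-0. Against Col-0 the log2 fold change was 1.02 ± 0.17 (SE) in the MC line (2.03-fold, adjusted p = 0.00130, edgeR) and -0.33 ± 0.18 in the MA line (adjusted p = 0.176), where it was called without Col-0 replicate 2 (-0.61). The log2 difference between the lines was -1.36 ± 0.17 (2.56-fold lower in the MA line, adjusted p = 2.86e-04).

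*AT5G66985* (chr5:26743279-26744019) rose in both lines, and more so in the MC line. It had 3.29 and 3.70 CPM in Col-0, 11.5 and 10.5 CPM in the MC line and 6.40 and 5.98 CPM in the MA line. The 3 genotypes did not overlap. This gave a log2 fold change of 1.65 ± 0.14 (SE) in the MC line (3.13-fold, adjusted p = 1.36e-05, edgeR) and 0.82 ± 0.15 in the MA line (1.77-fold, adjusted p = 0.00141), and MA-Line1 was 1.77-fold below MC-Line3 (log2 difference -0.83 ± 0.13, adjusted p = 8.78e-04).

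*AT3G23170* (chr3:8267920-8268961) fell most in the MC line. It had 61.3 and 80.2 CPM in Col-0, 13.9 and 15.3 CPM in the MC line and 36.8 and 36.4 CPM in the MA line. Col-0 was the highest and MC-Line3 the lowest, with no overlap between genotypes. Relative to the wildtype the log2 fold change was -2.28 ± 0.12 (SE) in the MC line (4.84-fold lower, adjusted p = 5.13e-07, edgeR) and -0.95 ± 0.11 in the MA line (1.94-fold lower, adjusted p = 9.84e-05), and MA-Line1 stood 2.50-fold above MC-Line3 (log2 difference 1.32 ± 0.12, adjusted p = 3.13e-05).

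The remaining 3 tested genes of unknown function were *AT4G24110*, *AT1G33055* and *AT3G10020*. The annotation names the product of *AT4G24110* an NADP-specific glutamate dehydrogenase, which was not checked. *AT4G24110* had 12.6 and 12.9 CPM in Col-0, 17.0 and 17.3 CPM in the MC line and 24.6 and 25.7 CPM in the MA line. It rose in both lines, by 1.98-fold in the MA line (adjusted p = 1.49e-05, edgeR) and 1.35-fold in the MC line (adjusted p = 0.00476), and MA-Line1 was the higher by 1.47-fold (adjusted p = 9.73e-04). *AT1G33055* rose by 1.69-fold in the MA line (adjusted p = 4.40e-04) and 1.27-fold in the MC line (adjusted p = 0.0481), the latter call being lost in 11 of the 16 alternatives, among them leaving out Col-0 replicate 2 or any library of the lines (log2 fold changes 0.24 to 0.47). Its difference between the lines (0.41, adjusted p = 0.0220) was lost without any library of the lines. *AT3G10020*, the gene with the highest level per kb, had 245 and 176 CPM in Col-0, 175 and 176 CPM in the MC line and 145 and 149 CPM in the MA line. Its fall by 0.52 on the log2 scale in the MA line was called (adjusted p = 0.00645) and was lost without MA-Line1 replicate 1, with log2 fold changes between -0.73 and -0.26 over the alternatives.

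The rest of the low-oxygen response is given for comparison as counts. Beside these, 18.2% of all genes tested rose and 19.4% fell in the MA line, and 14.5% rose and 16.8% fell in the MC line. Of the 7 genes of fermentation and sucrose breakdown 4 rose and 0 fell in each line. Among them was *PDC1* (pyruvate decarboxylase), with log2 fold changes of 1.01 in the MA line and 1.77 in the MC line. The log2 difference of *PDC1* between the lines was -0.75 (adjusted p = 0.00100, edgeR). By quantitative PCR the study instead found *PDC1* more induced in the MA line than in the MC line. Of the 5 plant cysteine oxidase genes 2 rose in each line, *PCO1* (3.07 and 1.74) and *PCO2* (2.23 and 1.89), while *PCO3*, *PCO4* and *PCO5* were not called. Of the 5 *ERFVII* genes of Arabidopsis 2 rose and 1 fell in the MA line, and 1 rose and 2 fell in the MC line. *RAP2.3* fell in both lines, with log2 fold changes of -0.64 in the MA line and -0.89 in the MC line. Of 10 other core hypoxia genes 4 rose and 3 fell in the MA line, and 1 rose and 5 fell in the MC line.

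Marker genes of roots and shoots also differed in level between the groups. Of all genes tested, 19.4% fell in the MA line and 16.8% in the MC line. Markers of both organs were detected in each library, and no marker was at 0 in any of them. Of 14 root markers 13 fell and 0 rose in the MA line, and 3 fell and 1 rose in the MC line, with median log2 fold changes of -1.53 and -0.17. Their summed level was 107.3 to 117.4 CPM in Col-0, 97.4 to 98.3 CPM in the MC line and 58.9 to 65.7 CPM in the MA line. Of 10 shoot markers 8 fell and 0 rose in the MA line, and 3 fell and 0 rose in the MC line, with medians of -0.52 and -0.24 and summed levels of 67630 to 70350 CPM, 55170 to 57850 CPM and 47110 to 49720 CPM. Both marker lists were lowest in the MA line, as were *PP2-A13* and *AT5G26200*, whereas *LBD41*, *HB1* and *WIP4* were highest there. The reads of *WIP4* cannot be told apart from those of the genes that overlap it.

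Genes that mark energy starvation were likewise lower in the MA line, where 19.4% of all genes tested fell, beside 16.8% in the MC line. Of 11 such genes 9 fell and 0 rose in the MA line and 4 fell and 0 rose in the MC line, with median log2 fold changes of -0.65 and -0.08. Their sums were 2037 to 3072 CPM in Col-0, 2256 to 2352 CPM in the MC line and 1589 to 1595 CPM in the MA line, with the Col-0 libraries far apart as for *ACHT5* and *AT3G10020*. The part of the organ markers and of the starvation genes in the levels of the hypoxia-inducible genes was not tested.

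**Figure D4:**
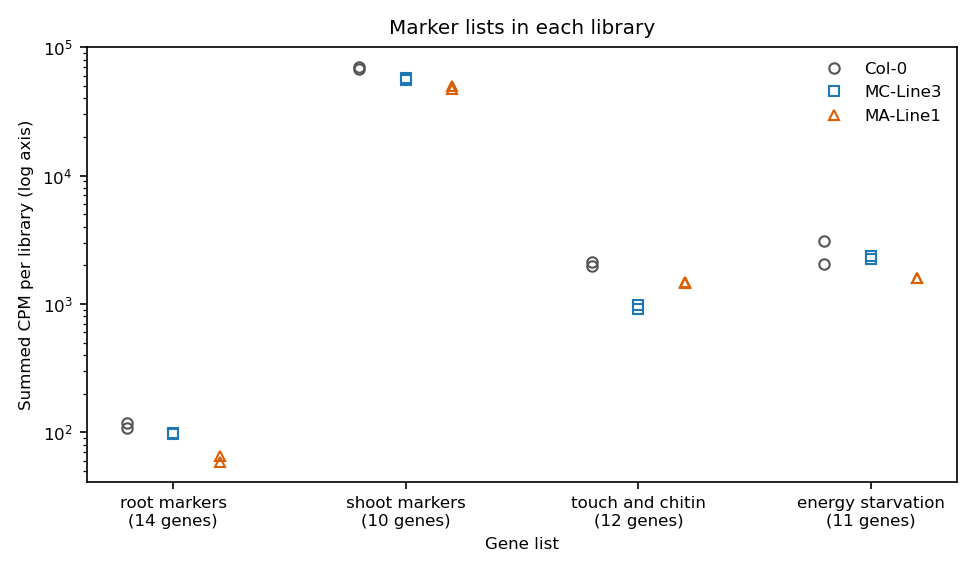
Summed CPM (log axis) of the root markers, the shoot markers, the touch and chitin genes and the energy starvation genes in each of the 6 libraries. MA-Line1 is lowest for the root markers (58.9 to 65.7 CPM), the shoot markers and the starvation genes, and MC-Line3 is lowest for the touch and chitin genes (912.5 to 987.8 CPM).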

How the data were processed

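According to the study, RNA was extracted with TRIzol, libraries were prepared with the TruSeq RNA v2 kit and sequenced as paired ends on a NovaSeq, the FASTX toolkit and Trimmomatic were used for read filtering, TopHat2 for alignment and HTSeq for counting, and edgeR was applied at an FDR below 0.05. The processing notes of the submitters name the TAIR10 genome. The strand setting of the counting is not given in the sources used here. The values deposited by the authors are whole-number read counts per gene without normalization, for 28775 genes in 6 libraries, of which 4158 genes had no count. The columns of the MC line are named as line 1 in the count table and were assigned to MC-Line3 by construct, with the replicate numbers of the columns.

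Counts were analysed with edgeR 4.0.16 under R 4.3.3. The 6 libraries shared 1 fit, which gave each group its mean, with TMM normalization, the default filter on low counts and the quasi-likelihood fit with adjusted deviances of edgeR 4. The 3 comparisons were tested, and p-values were adjusted over 21206 genes by the Benjamini-Hochberg method. Against Col-0 this called 7988 genes in the MA line and 6620 in the MC line, far more than the study reported at the same FDR. Dividing the log2 fold change by the root of its F statistic gave the SE. Simulated counts with known changes were used to test the procedure. Replicates are described as biological. The p-values rest on the spread between the 2 libraries of each group, pooled over all groups of the fit and drawn towards that of other genes.

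The genes and the lists were chosen with earlier results of these data known. Values are given in full for genes called in a comparison with an absolute log2 fold change of at least 1, and for *HRA1*. Names, positions and sequences were read from TAIR10.1, where 28009 of the counted genes were found, with all 33 described here. Of these, 11 have exon bases that overlap another gene. Alternatives were other scalings, filters and tests (DESeq2 1.42.0 among them), a replicate term, a fit of the groups compared and leaving out each library.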

Additional observations from a re-analysis of the deposited data

Results flagged for a closer look

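For 6 genes the effects of the lines differed by more than 2-fold in the direct comparison of MA-Line1 with MC-Line3 (quasi-likelihood test of edgeR, Benjamini-Hochberg adjustment). *AT2G17850* had a log2 difference of -1.96, with 3.18 in the MC line and 1.22 in the MA line against Col-0. *AT4G39675* had a log2 difference of -1.83 and was called in the MC line but not in the MA line against Col-0. *AT1G19530* had a log2 difference of -1.36, again with a call in the MC line only. *AT3G23170* had a log2 difference of 1.32 and was below Col-0 in both lines. *LBD41* had a log2 difference of 1.30 and was above Col-0 in both lines. *AT4G17670* had a log2 difference of 1.17 and was called in the MA line only. The calls of these 6 differences were kept under each of the 16 alternatives.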

How the results depend on the processing

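Each call among the 32 tested genes was recomputed under 16 alternatives, 6 of which leave out a library. There the lone library of a group is assumed to vary like the others. Of the called genes, 17 of 24 in the MA line, 18 of 24 in the MC line and 11 of 19 between the lines kept their call under each of them, and no named value changed sign while called. Scaling by library size alone lowered the number that fell in the MA line from 8 to 5 and moved the medians to 0.58 in the MA line and 0.55 in the MC line. The upregulated share of all calls then was 73.3% and 69.4%, against 48.4% and 46.3%. Leaving out a library gave 5 to 10 genes lower in the MA line, 3 to 7 lower in the MC line and 4 to 9 higher in the MA line than in the MC line. The median was then 0.41 to 0.46 in the MA line and 0.032 to 0.14 between the lines.

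With dispersions estimated without the genotypes, added after seeing the data, the numbers higher and lower in the MA line, in the MC line and between the lines were all 0. By construction this setting counts the differences between genotypes as spread. In these 3 comparisons 13, 10 and 4 of the 32 genes had an unadjusted p below 0.05.

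The deviations of libraries with the same column number correlated at 0.02, -0.06 and -0.06, so no pairing by number was seen. This cannot exclude pairing, since the column numbers of the MC line are not tied to samples. With the replicate block the medians were 0.41, 0.43 and 0.09, and 1, 2 and 0 calls were lost. The block changed all calls from 7988 to 7666 in the MA line, from 6620 to 6275 in the MC line and from 4258 to 4025 between the lines. *NIP2;1*, with 25 to 57 counts per library, had the widest error of the 32 genes in each of the 3 comparisons.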

Other observations

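Outside the 33 genes, a pair of core hypoxia genes was called in opposite directions in the lines, and the genes named here were chosen after their values were seen. Calls of single genes outside the 33 were not recomputed under the alternatives. *RBOHD*, which encodes an NADPH oxidase that makes reactive oxygen species, was at 135 ± 0.971 CPM in the MA line, 61.9 ± 4.87 CPM in the MC line and 113 ± 12.96 CPM in the wildtype (SD, n = 2 each). Its log2 fold change was 0.27 in the MA line (adjusted p = 0.0352, edgeR) and -0.86 in the MC line (adjusted p = 5.73e-05). The log2 difference of 1.13 between the lines was called (adjusted p = 1.12e-05). *ANAC102*, a NAC transcription factor, had log2 fold changes of 0.48 in the MA line (adjusted p = 2.3e-04) and -0.23 in the MC line (adjusted p = 0.0229). The difference of 0.71 was called (adjusted p = 3.03e-05).

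Among the *ERFVII* genes of Arabidopsis, *HRE2* was at 4.66 ± 0.353 CPM in the MA line and 0.744 ± 0.184 CPM in the wildtype (SD, n = 2 each). Its log2 fold change was 2.65 in the MA line (adjusted p = 2.14e-05, edgeR). In the MC line the log2 fold change of *HRE2* was 0.90 and was not called (adjusted p = 0.0572). *HRE1* rose in the MC line by 0.55 on the log2 scale (adjusted p = 0.00633) and had a log2 fold change of 0.03 in the MA line. *SUS4*, a sucrose synthase, had log2 fold changes of 1.16 in the MC line and -0.23 in the MA line, and the difference of -1.40 between the lines was called (adjusted p = 2.71e-05), the same direction as for *AT4G39675* and *AT1G19530*.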
